A study of Mus musculus with 6 samples.

Results

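The 8 protease genes of mast cell granules, *Mcpt1*, *Mcpt2*, *Mcpt4*, *Mcpt8*, *Cma1*, *Tpsb2*, *Tpsab1* and *Cpa3*, were examined in RNA sequencing libraries of mouse peritoneal cells (PC). They were taken by gene symbol, and all 8 were among the 17320 genes of the deposited table and passed the filter on low values. The libraries came from C57BL/6 mice, 3 of them labelled Mcemp1-/- (replicates 4, 5 and 6) and 3 labelled wild type (replicates 1, 2 and 3), and all 6 were made from PC after 9 days of culture, with the growth factors SCF and IL-3. The Mcemp1-/- allele is a germline CRISPR/Cas9 deletion in exon 1 that shifts the reading frame, so every cell type of the culture carries it and not mast cells alone. MCEMP1 is a surface protein of mast cells and other myeloid cells that the study describes as an adaptor of KIT, the SCF receptor. The comparison asks how the RNA of the culture differs without MCEMP1. The sources used here do not give the age or sex of the mice behind these libraries.

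Mast cells store proteases in their granules, bound to heparin on the proteoglycan serglycin, and release them on degranulation. In mice, connective-tissue mast cells, such as those of the skin and the peritoneum, hold the chymases *Cma1* (mMCP-5) and *Mcpt4* (mMCP-4), the tryptases *Tpsb2* (mMCP-6) and *Tpsab1* (mMCP-7) and carboxypeptidase A3 (*Cpa3*). Mucosal mast cells of the gut instead hold the chymases *Mcpt1* (mMCP-1) and *Mcpt2* (mMCP-2). *Mcpt8* encodes mMCP-8, a protease known mainly from basophils. The paper, however, lists *Mcpt8* among the mast cell signature genes of mast cells sorted from longer peritoneal cultures. C57BL/6 mice lack the mMCP-7 protein because of a splice site mutation in *Tpsab1*, so its values here are those of an RNA.

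Among the members, mucosal-type chymase RNA was the most unequal between the genotypes. *Mcpt1* and *Mcpt2* were higher in all 3 Mcemp1-/- libraries than in any wild type library, and *Tpsab1* and *Mcpt4* also did not overlap. The most abundant members, *Cpa3* and *Cma1*, were higher in replicates 4 and 5, but the library labelled Mcemp1-/- replicate 6 was within the wild type range for *Cpa3* and just below it for *Cma1*. *Mcpt8* was the only member that was lower in every Mcemp1-/- library. With all 6 libraries, 0 of the 8 members passed the threshold of an adjusted p under 0.05 (limma), which 0.074% of all genes did, and 5 passed an unadjusted p under 0.05, which 25.4% did. With *Xist* level as a block in the fit, an alternative chosen after seeing the data, *Mcpt1* and *Mcpt2* passed with all 6 libraries. In that fit 0.126% of all genes passed. Without replicate 6 all 8 passed, 7 higher and 1 lower, where 19.4% of all genes were higher and 22.4% lower.

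Replicate 6 stood apart from its group. *Mcemp1* itself had normalized counts of 0.201, 0.0849 and 4.23 in the libraries labelled Mcemp1-/- replicates 4, 5 and 6. In wild type replicates 1, 2 and 3 it was at 9.80, 7.68 and 16.9, so replicate 6 lay between. Its label cannot be checked from this value alone, because a small deletion need not remove the transcript. The paper places MCEMP1 mainly in myeloid cells, such as mast cells and alveolar macrophages. The part of cell makeup in the *Mcemp1* values was not tested. *Xist*, which marks female cells, was 1481 in the library labelled Mcemp1-/- replicate 6 and 1297 in wild type replicate 3, and under 1 in the other 4 libraries. Each result is therefore given per library and, where it matters, without replicate 6. The deposited values sum to 952073 to 989051 in the Mcemp1-/- libraries and 932999 to 959380 in the wild type libraries. They are on a scale close to CPM, and the read depth is unknown. No source used here says that the libraries of a group came from separate mice or cultures, so the p-values reflect library-to-library spread only, and that spread may be technical.

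Mast cell markers were present in every library. All 14 listed markers that are not proteases were tested, and their summed level was 20531, 20825 and 11910 in Mcemp1-/- replicates 4, 5 and 6, against 10206 to 10861 in wild type. Of the 14, 10 were higher and *Hdc*, the histamine-forming enzyme, was lower in all 3 Mcemp1-/- libraries. Over all genes tested, 14.8% were higher and 14.7% lower in this way, without overlap of the groups. The connective-tissue receptor *Mrgprb2* was low throughout, at 1.77 to 8.20 in Mcemp1-/- PC and 1.99 to 4.23 in wild type PC. *Mrgprb1* of the same list was at 30.0, 39.8 and 5.81 in Mcemp1-/- replicates 4, 5 and 6. In wild type replicates 1, 2 and 3 it was at 7.52, 6.53 and 1.59, so the groups overlapped. Other lineages differed between the libraries as well. The sum over 10 markers of neutrophil precursors was 478, 352 and 13089 in Mcemp1-/- replicates 4, 5 and 6, against 8689 to 14404 in wild type. The sum over 8 macrophage markers was 4.55, 3.26 and 122 in the Mcemp1-/- libraries, against 122 to 174 in wild type, and that over 8 eosinophil markers was 10.6, 11.2 and 12.8, against 52.2 to 140. For the neutrophil and macrophage lists the sum of the library labelled Mcemp1-/- replicate 6 was thus at the wild type level. For the eosinophil list it was at that of replicates 4 and 5. Most of the macrophage sum of replicate 6 was *Csf1r*, at 80.5, against 73.2 to 90.4 in wild type. Its *Cd68* (13.6, against 15.2 to 21.6) and *Mrc1* (10.6, against 19.8 to 37.0) were below every wild type library. Of 6 tested macrophage markers, 3 were lower in Mcemp1-/- PC without overlap. Most of the eosinophil sum in the Mcemp1-/- libraries was *Ccr3* and *Il5ra*, which overlapped between the groups. *Siglecf* of that list was at 0.201, 0.0849 and 3.02 in Mcemp1-/- replicates 4, 5 and 6, against 4.94 to 8.32 in wild type. The few T, NK and B cell markers of the table summed to 8.14 to 8.76 in Mcemp1-/- PC and 4.73 to 9.16 in wild type PC. No value of the table is 0, and several defining markers were near the lowest values, such as the eosinophil genes *Epx* at 0.0669, 0.255 and 0.121 in Mcemp1-/- PC, against 15.9 to 48.5 in wild type, and *Prg2* at 0.0806 to 0.255 in Mcemp1-/- PC, against 18.0 to 55.9 in wild type. In bulk libraries fewer cells of a type and less RNA per cell cannot be told apart, and the part of cell makeup in the results below was not tested.

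The members lie at 3 loci (mm10 coordinates). The chymase locus holds *Cma1* (chr14:55941451-55944675), *Mcpt1* (chr14:56017971-56020384), *Mcpt2* (chr14:56042041-56044642), *Mcpt4* (chr14:56059629-56062313) and *Mcpt8* (chr14:56082166-56085273). The tryptases *Tpsab1* (chr17:25343245-25345562) and *Tpsb2* (chr17:25366305-25369098) form a second cluster, and *Cpa3* stands alone (chr3:20215620-20242181). Some pairs within a cluster are close in sequence, which matters for how reads are assigned. The transcripts of *Mcpt1* and *Mcpt4* were 72.8% identical, those of *Mcpt1* and *Mcpt2* 70.7% and those of *Tpsb2* and *Tpsab1* 63.7%. *Mcpt4* and *Mcpt8* were at 45.3%, and *Mcpt4* and *Cpa3* at 45.2%. Gap columns count in these percentages and the transcripts differ in length, so the low values do not rank how related the genes are. Despite the close pairs, 6 of the 8 members had no run of 50 bases in common with another gene. *Mcpt4* shared 5.48% of its runs with *Cma2* and *Mcpt9*, and *Cma1* shared 5.38% with the gene model *Gm48934*, so a small part of their reads may be uncertain.

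Promoter windows, from 250 bases before to 50 bases after the start site, were found in RefSeq (GRCm38.p6) for 5 of the 8 members. Of the 4 windows below, those of *Mcpt1* and *Mcpt4* are shown as the most alike pair found. The genotype differences of these 2 genes were unlike in size. *Cpa3* is shown as the most abundant member and *Mcpt8* as the member that was lower. Capitals mark the letters GATAA, or TTATC where it lies on the other strand, the core of the sites that GATA factors such as GATA2 bind.
Mcpt1 (chr14:56017714-56018013, plus strand): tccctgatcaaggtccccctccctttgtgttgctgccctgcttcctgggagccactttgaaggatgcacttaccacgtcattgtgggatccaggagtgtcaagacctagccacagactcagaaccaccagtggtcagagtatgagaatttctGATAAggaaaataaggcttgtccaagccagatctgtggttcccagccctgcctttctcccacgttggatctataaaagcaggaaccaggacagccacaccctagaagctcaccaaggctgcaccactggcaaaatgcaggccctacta
Mcpt4 (chr14:56062261-56062560, minus strand): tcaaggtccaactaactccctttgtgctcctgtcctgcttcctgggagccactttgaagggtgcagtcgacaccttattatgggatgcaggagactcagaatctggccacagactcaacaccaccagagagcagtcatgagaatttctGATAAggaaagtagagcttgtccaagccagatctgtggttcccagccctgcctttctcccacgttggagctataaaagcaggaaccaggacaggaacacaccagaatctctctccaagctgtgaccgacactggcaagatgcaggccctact
Cpa3 (chr3:20242132-20242431, minus strand): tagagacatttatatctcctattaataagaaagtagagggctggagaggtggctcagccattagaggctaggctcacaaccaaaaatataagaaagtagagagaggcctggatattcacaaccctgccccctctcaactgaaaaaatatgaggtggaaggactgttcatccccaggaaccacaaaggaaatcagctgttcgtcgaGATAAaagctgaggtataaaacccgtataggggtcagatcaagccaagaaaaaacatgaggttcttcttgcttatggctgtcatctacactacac
Mcpt8 (chr14:56085148-56085447, minus strand): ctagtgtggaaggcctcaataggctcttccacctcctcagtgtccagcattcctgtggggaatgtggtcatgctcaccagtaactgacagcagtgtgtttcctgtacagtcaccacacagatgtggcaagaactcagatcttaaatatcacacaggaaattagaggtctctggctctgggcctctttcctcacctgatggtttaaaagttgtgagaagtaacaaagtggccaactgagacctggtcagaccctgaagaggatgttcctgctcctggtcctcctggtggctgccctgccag
The *Mcpt1* and *Mcpt4* windows were identical in 249 of 309 aligned columns (80.6%), and the other pairs of windows in 43.2% to 49.0%. Their GATAA match lies in the same stretch, at -98 in *Mcpt1* and -102 in *Mcpt4* relative to the start site. *Cpa3* had its match at -45 and *Cma1* at -194, and the letters were not found in the *Mcpt8* window. Of all 32851 windows of this length, 25.4% hold GATAA on either strand, against 4 of the 5 member windows. A TATA box, searched as TATAAA on both strands, was in the windows of *Cpa3*, *Mcpt1* and *Mcpt4*, and in 13.6% of all windows. The E-box CANNTG was in 3 member windows and 72.3% of all windows. CATGTG and CACGTG, which MITF binds and which also match CANNTG, were in 0 of the 5 and in 14.2% and 7.15% of all windows. A match is a description of the letters and not a mapped binding site.

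Levels between genes were compared as normalized counts per kilobase of annotated exons. *Cpa3*, *Cma1* and *Mcpt4* led in this order in every library, and the genotypes differed at the lower end of the order. In Mcemp1-/- replicates 4 and 5 the level per kb was 17602 to 18337 for *Cpa3*, 4666 to 4729 for *Cma1* and 808 to 1057 for *Mcpt4*. *Tpsb2* (324 to 365) and *Mcpt2* (287 to 354) overlapped and were followed by *Tpsab1* (194 to 246), *Mcpt1* (117 to 141) and *Mcpt8* (15.6 to 19.9), each apart from the next. The library labelled Mcemp1-/- replicate 6 had the same order at lower levels, from 9741 for *Cpa3* to 32.4 for *Mcpt1* and 13.7 for *Mcpt8*. In wild type PC *Cpa3* was at 9504 ± 212 per kb (SD, n = 3) and *Cma1* at 2899 ± 133. *Mcpt4* (232 ± 82.5) and *Tpsb2* (151 ± 30.9) overlapped each other, and so did *Tpsab1* (34.6 ± 12.9) with *Mcpt8* (31.4 ± 2.02), and *Mcpt8* with *Mcpt2* (28.1 ± 8.04). *Mcpt1* was the lowest in wild type, at 7.95 ± 2.90 per kb. The mucosal chymase *Mcpt2* thus stood above *Tpsab1* and *Mcpt8* in Mcemp1-/- PC and overlapped both in wild type PC. The lengths matter for the tryptases, which have longer annotated isoforms. With the shortest coding transcript of each gene, *Tpsab1* was at 351, 446 and 102 per kb in Mcemp1-/- replicates 4, 5 and 6 and *Mcpt2* at 354, 287 and 106, so the order of these 2 genes is not settled. On the same lengths *Tpsb2* averaged 258 per kb in wild type PC, above the 232 of *Mcpt4*. The members also differed in how far they varied within wild type, with a coefficient of variation of 2.23% for *Cpa3*, 4.59% for *Cma1* and 6.43% for *Mcpt8*, but 20.52% to 37.4% for the other 5.

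**Figure D1:**
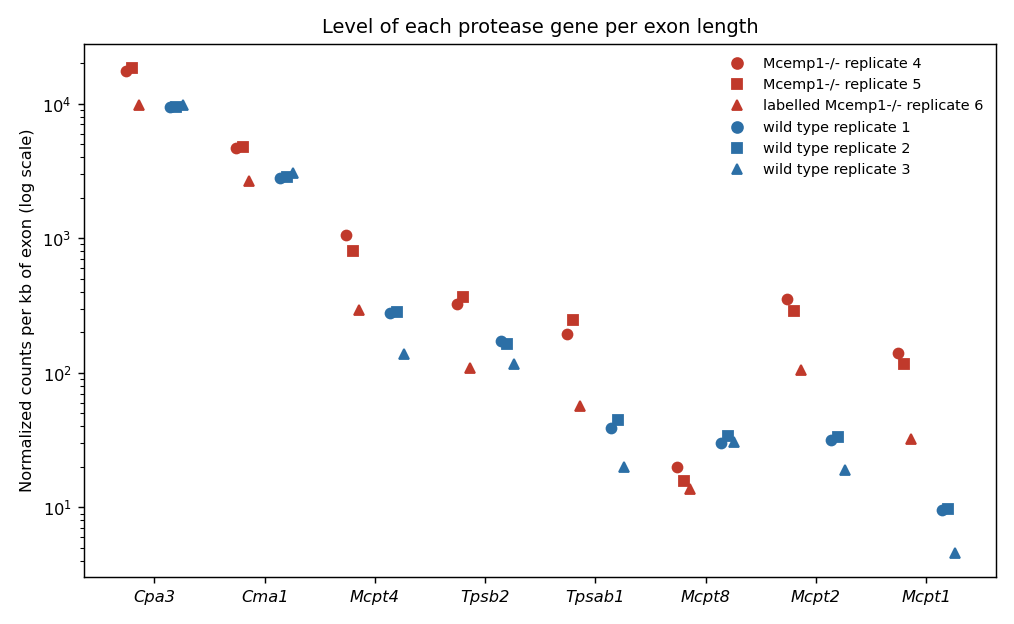
Normalized counts per kilobase of annotated exons (log axis) for the 8 protease genes, 1 symbol per library, Mcemp1-/- libraries beside wild type. *Cpa3* and *Cma1* lie above all others in every library, and *Mcpt1* and *Mcpt8* exchange the last place between the genotypes.

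*Cpa3*, the metalloprotease that trims C-terminal residues and degrades peptides such as endothelin, was the most abundant RNA of the whole table in all 6 libraries. Its level was 26702, 27818 and 14778 normalized counts for Mcemp1-/- replicates 4, 5 and 6, against 14213, 14253 and 14788 in wild type replicates 1, 2 and 3. Replicates 4 and 5 were almost double the wild type level, and replicate 6 lay within the wild type range. The log2 difference was 0.62 (standard error 0.29, adjusted p = 0.227, limma) with all libraries and 0.92 (adjusted p = 3.2e-04) without replicate 6. *Cma1*, a chymase that in mice has elastase-like activity and depends on the CPA3 protein for its storage, had 5086, 5155 and 2899 in the Mcemp1-/- libraries, against 3067, 3086 and 3327 in wild type. The library labelled Mcemp1-/- replicate 6 was below every wild type library, so the groups overlapped here as well (0.42, standard error 0.24, adjusted p = 0.290, and 0.70 without replicate 6, adjusted p = 5.0e-04).

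*Mcpt4*, the chymase closest in function to human chymase, was at 1172, 896 and 325 in Mcemp1-/- replicates 4, 5 and 6, against 306, 314 and 152 in wild type replicates 1, 2 and 3. All Mcemp1-/- libraries were above all wild type libraries, but replicate 6 was above wild type replicates 1 and 2 only by a small margin. The mean was 797 ± 432 in Mcemp1-/- PC and 257 ± 91.4 in wild type PC (SD, n = 3 each), with a log2 difference of 1.51 (standard error 0.54, adjusted p = 0.173, limma). Within the locus, *Mcpt4* and *Cma1* therefore did not keep a fixed proportion. *Mcpt4* was 23.0%, 17.4% and 11.2% of *Cma1* in the Mcemp1-/- libraries, against 9.99%, 10.2% and 4.56% in wild type.

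The tryptases differed from each other. *Tpsb2* encodes the active tetramer-forming tryptase of these mice and was at 516, 581 and 173 in Mcemp1-/- replicates 4, 5 and 6, against 276, 261 and 184 in wild type. Replicate 6 was the lowest library of all, and the difference of 0.66 (standard error 0.48, adjusted p = 0.388, limma) was within the spread of the Mcemp1-/- group. *Tpsab1* was at 406, 516 and 118 in the Mcemp1-/- libraries, against 81.8, 93.6 and 41.9 in wild type, with no overlap (2.08, standard error 0.61, adjusted p = 0.155). The ratio of *Tpsab1* to *Tpsb2*, chosen after the values were seen, was 0.787, 0.887 and 0.679 in Mcemp1-/- PC, against 0.296, 0.359 and 0.227 in wild type PC.

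*Mcpt1*, the chymase of intestinal mucosal mast cells with a role in expelling worms, had 143, 119 and 32.8 normalized counts in Mcemp1-/- replicates 4, 5 and 6, against 9.62, 9.88 and 4.67 in wild type replicates 1, 2 and 3. Even the lowest Mcemp1-/- library was above the highest wild type library by a wide margin. The means were 98.1 ± 57.8 in Mcemp1-/- PC and 8.06 ± 2.94 in wild type PC (SD, n = 3 each), and the log2 difference was 3.35 (standard error 0.61, adjusted p = 0.137, limma), the second highest of the 13517 genes tested. *Mcpt2*, its neighbour in the locus, had 375, 304 and 112 in the Mcemp1-/- libraries, against 33.7, 35.6 and 19.997 in wild type. It ranked just after *Mcpt1*, with a log2 difference of 2.998 (standard error 0.49, adjusted p = 0.111). Both genes followed the same order over the libraries of their group, and *Mcpt1* was 38.0%, 39.0% and 29.2% of *Mcpt2* in Mcemp1-/- PC, against 28.5%, 27.8% and 23.4% in wild type PC.

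*Mcpt8* ran the other way. It was at 19.8, 15.6 and 13.6 in Mcemp1-/- replicates 4, 5 and 6, against 29.8, 33.6 and 30.5 in wild type replicates 1, 2 and 3. Here replicate 6 was not between the groups but the lowest library. The log2 difference was -0.93 (standard error 0.15, adjusted p = 0.111, limma). *Prss34* (mMCP-11), another protease gene known from basophils, was at 0.268, 0.510 and 0.242 in Mcemp1-/- PC, against 1.37 to 2.36 in wild type PC, likewise lower without overlap (adjusted p = 0.138). The other 5 of the 6 basophil markers did not follow *Mcpt8*. *Cd200r3* and *Grm6* were higher without overlap (282 ± 71.2 and 1.36 ± 0.211 in Mcemp1-/- PC, against 182 ± 9.40 and 0.781 ± 0.381 in wild type PC, SD, n = 3 each), and *Cyp11a1*, *Il4* and *Itga2* overlapped with log2 differences of 0.44, 0.47 and 0.16. The list had a sum of 1766, 1922 and 1018 in Mcemp1-/- PC, against 1053 to 1145 in wild type PC, nearly all of it *Cyp11a1* and *Cd200r3*.

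**Figure D2:**
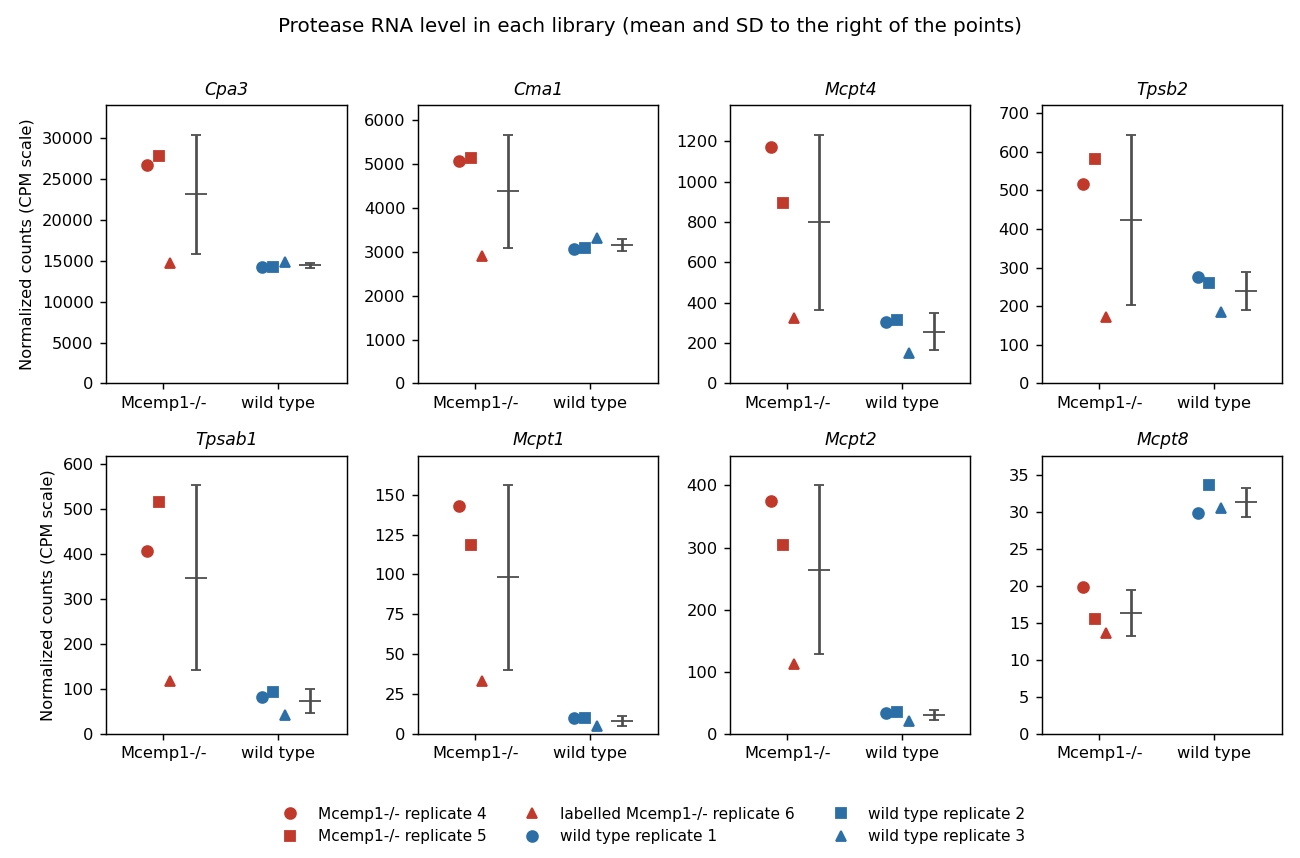
Normalized counts (CPM scale, linear axes from 0) of each protease gene, 1 symbol per library, with the mean and SD to the right of each group, Mcemp1-/- left and wild type right. *Mcpt1*, *Mcpt2*, *Mcpt4* and *Tpsab1* were higher and *Mcpt8* lower in all 3 Mcemp1-/- libraries, whereas replicate 6 (red triangle) lay within the wild type range for *Cpa3* and just below it for *Cma1* and *Tpsb2*.

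Counted over the 8 members, 0 passed an adjusted p under 0.05 with all libraries, where 0.074% of all genes tested did (10 of 13517, limma), and 5 passed an unadjusted p under 0.05, where 25.4% of all genes did. The exact permutation test of a single member cannot go below p = 0.1 with 3 libraries against 3, and it gave that value for *Mcpt1*, *Mcpt2*, *Mcpt4*, *Tpsab1* and *Mcpt8*. The groups did not overlap for 4 members that were higher and 1 that was lower in Mcemp1-/- PC, where the shares over all genes were 14.8% and 14.7%. The median log2 difference of the members was 1.08, against -0.01 for all genes tested.

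Without the library labelled Mcemp1-/- replicate 6, 7 members were higher and 1 was lower at an adjusted p under 0.05 from limma, where 19.4% of genes were higher and 22.4% lower. The log2 differences were then 4.01 for *Mcpt1* (adjusted p = 3.0e-04), 3.53 for *Mcpt2* (2.3e-04), 2.73 for *Tpsab1* (0.0016), 2.07 for *Mcpt4* (0.0041), 1.21 for *Tpsb2* (0.0030) and -0.81 for *Mcpt8* (0.0031). The order of the members by the size of their difference was the same with and without that library for *Mcpt1*, *Mcpt2*, *Tpsab1* and *Mcpt4*, the leading 4.

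**Figure D3:**
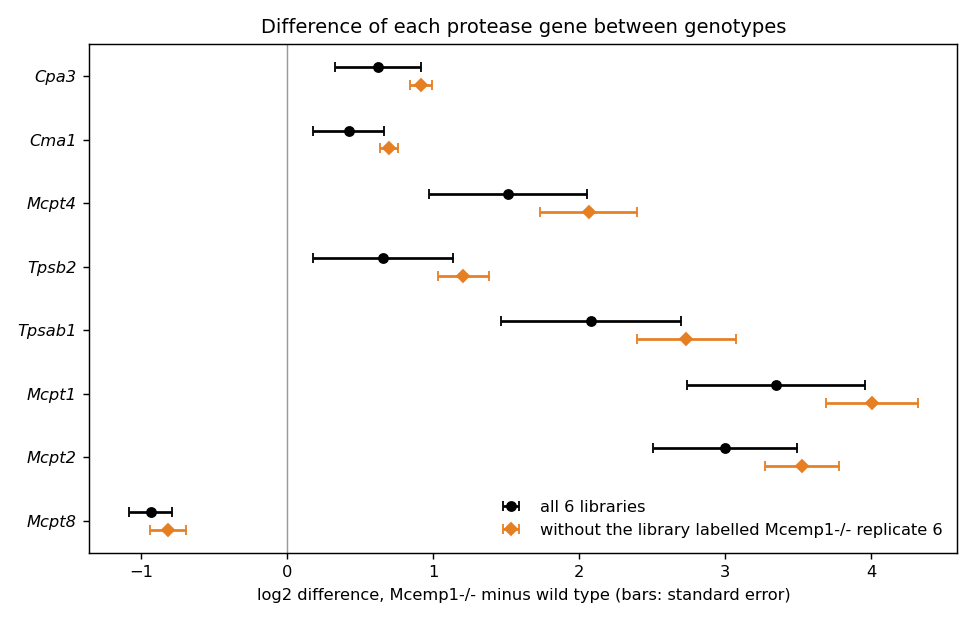
The log2 difference of each protease gene, Mcemp1-/- minus wild type, with its standard error from limma, for all 6 libraries (black) and without the library labelled Mcemp1-/- replicate 6 (orange). The positive differences run to 3.35 for *Mcpt1* with all libraries and 4.01 without replicate 6, and only *Mcpt8* lies below 0.

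Each genotype held 1 library with high *Xist*, and within the wild type group that library, replicate 3, was low for some members and not for others. It was at 0.479 times the mean of wild type replicates 1 and 2 for *Mcpt1*, 0.577 for *Mcpt2*, 0.490 for *Mcpt4*, 0.478 for *Tpsab1* and 0.686 for *Tpsb2*, but at 1.04 for *Cpa3*, 1.08 for *Cma1* and 0.963 for *Mcpt8*. Between the 2 libraries with high *Xist*, the library labelled Mcemp1-/- replicate 6 was 7.02 times wild type replicate 3 for *Mcpt1*, 5.61 times for *Mcpt2*, 2.81 times for *Tpsab1* and 2.14 times for *Mcpt4*. The same ratio was 0.999 for *Cpa3*, 0.871 for *Cma1*, 0.941 for *Tpsb2* and 0.446 for *Mcpt8*, with 1 library on each side and so no test. Among the 4 libraries with low *Xist*, Mcemp1-/- replicates 4 and 5 were 13.4 times wild type replicates 1 and 2 for *Mcpt1*, 9.80 times for *Mcpt2*, 5.26 times for *Tpsab1*, 3.33 times for *Mcpt4*, 2.04 times for *Tpsb2*, 1.92 times for *Cpa3*, 1.66 times for *Cma1* and 0.558 times for *Mcpt8*. All 8 members passed there, 7 higher and 1 lower, where 19.0% of genes were higher and 22.8% lower. With all 6 libraries and *Xist* level as a block in the fit, an alternative chosen after seeing the data, *Mcpt1* and *Mcpt2* passed (adjusted p = 0.033 each, limma, standard errors 0.22 and 0.19), where 0.126% of all genes did. *Tpsab1* (adjusted p = 0.063), *Mcpt4* (0.068), *Mcpt8* (0.072), *Tpsb2* (0.135), *Cpa3* (0.166) and *Cma1* (0.226) did not, and 6 of the 8 were at an unadjusted p under 0.05, where 32.7% of all genes were.

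*Kit*, the gene of the SCF receptor, was taken as a mast cell level of comparison. It was at 3265, 3221 and 1827 in Mcemp1-/- replicates 4, 5 and 6, against 1700, 1704 and 1800 in wild type, and the proteases were expressed as a percentage of *Kit* in the same library. *Cpa3* was then level across the experiment, at 818%, 864% and 809% of *Kit* in the Mcemp1-/- libraries, against 836%, 837% and 822% in wild type. *Cma1* was at 156%, 160% and 159% in Mcemp1-/- PC, against 180%, 181% and 185% in wild type PC, a difference that had the opposite sign to that of its plain value in replicates 4 and 5. *Mcpt4* and *Tpsb2* overlapped between the genotypes on this scale.

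The mucosal chymases stayed apart from wild type relative to *Kit*. *Mcpt1* was at 4.37%, 3.69% and 1.80% of *Kit* in Mcemp1-/- replicates 4, 5 and 6, against 0.566%, 0.580% and 0.260% in wild type. *Mcpt2* was at 11.5%, 9.45% and 6.14% in Mcemp1-/- PC, against 1.99%, 2.09% and 1.11% in wild type PC. In both genes the lowest Mcemp1-/- library was above the highest wild type library. *Tpsab1* was at 12.4%, 16.0% and 6.45% in Mcemp1-/- PC, against 4.81%, 5.49% and 2.33% in wild type PC. *Mcpt8* was at 0.607%, 0.484% and 0.746% in Mcemp1-/- PC, against 1.75%, 1.97% and 1.70% in wild type PC. In all, 3 of the 8 members were higher without overlap, where 1.35% of all genes were, and 2 were lower, where 38.5% were.

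**Figure D4:**
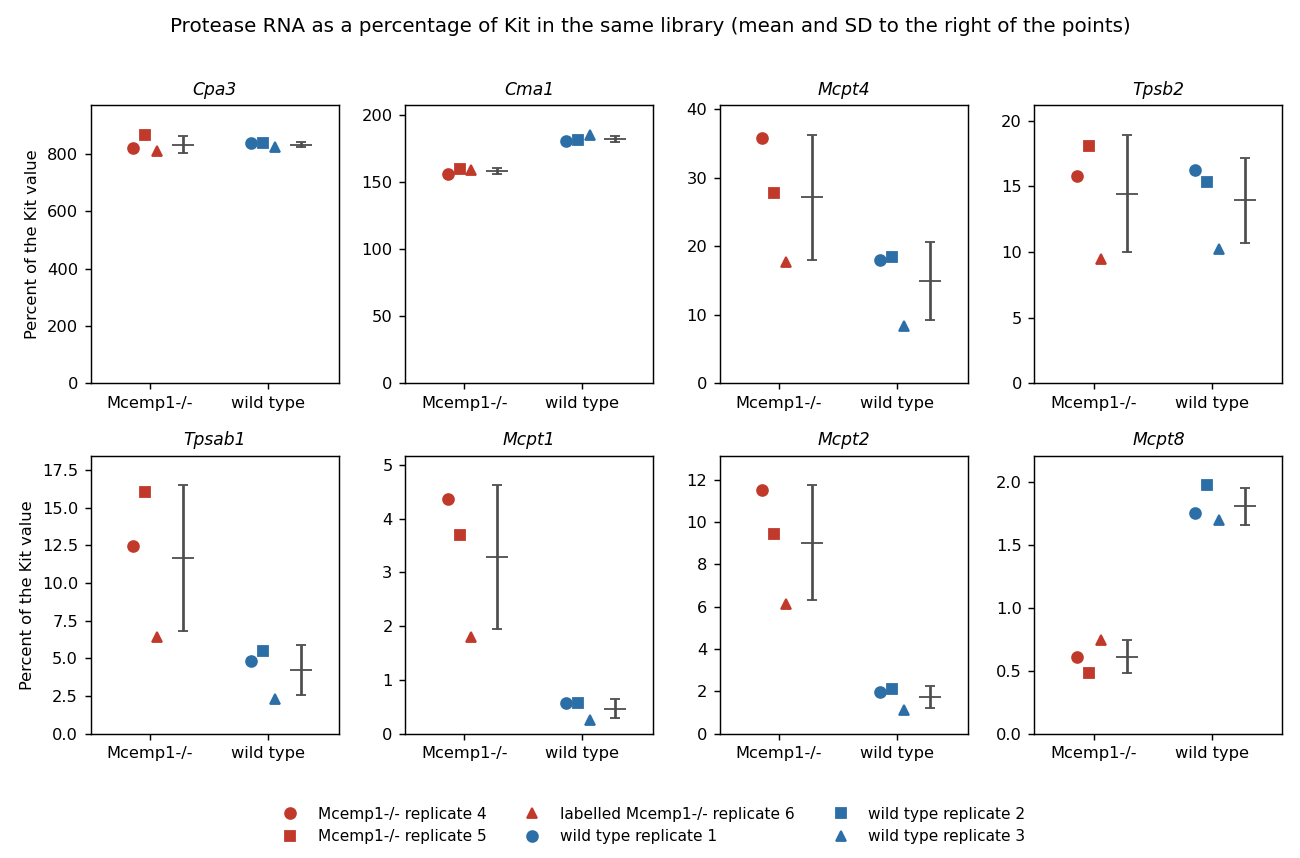
Each protease gene as a percentage of *Kit* in the same library (linear axes from 0), 1 symbol per library with the mean and SD to the right, Mcemp1-/- left and wild type right. *Cpa3* lies between 809% and 864% in all 6 libraries, and *Mcpt1*, *Mcpt2* and *Tpsab1* are higher and *Cma1* and *Mcpt8* lower in every Mcemp1-/- library.

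The makeup of the protease RNA summarised these shifts. The 8 genes together took 3.48%, 3.63% and 1.94% of all values in Mcemp1-/- replicates 4, 5 and 6, against 1.93%, 1.89% and 1.98% in wild type, and *Cpa3* was 77.6% to 80.1% of that sum in Mcemp1-/- PC and 78.8% to 79.7% in wild type PC. *Mcpt1* and *Mcpt2* were 1.505%, 1.20% and 0.786% of the sum in the Mcemp1-/- libraries, against 0.241%, 0.251% and 0.133% in wild type. The connective-tissue sum was 65.4, 82.6 and 126 times the mucosal sum in Mcemp1-/- PC, against 414, 396 and 750 times in wild type PC, a difference of -2.50 in the log2 ratio. Mucosal-type RNA thus remained a minor part of the protease RNA in both genotypes.

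A ratio chosen after the values were seen varied little within each genotype. *Mcpt4* was 2.26, 2.12 and 2.24 times the sum of *Mcpt1* and *Mcpt2* in Mcemp1-/- replicates 4, 5 and 6, against 7.06, 6.89 and 6.15 times in wild type replicates 1, 2 and 3. Here the library labelled Mcemp1-/- replicate 6 lay between replicates 4 and 5, although its *Cpa3*, *Cma1* and *Tpsb2* were within or just below the wild type range.

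**Figure D5:**
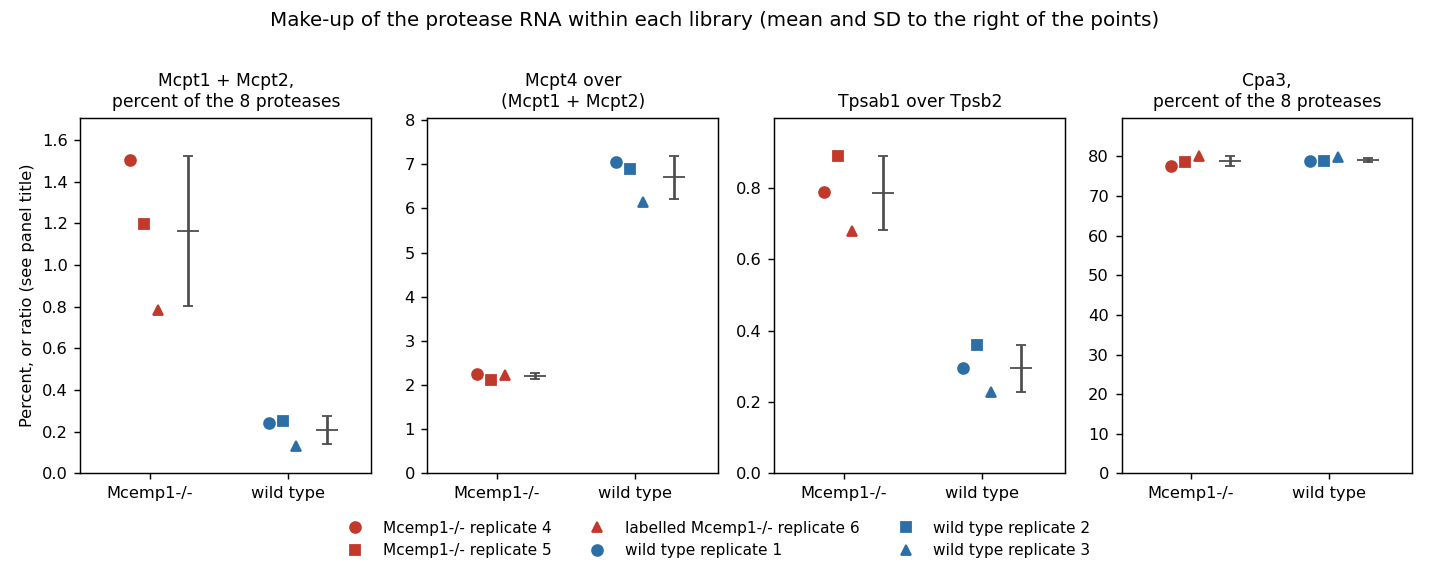
Makeup of the protease RNA in each library, with the mean and SD to the right of each group, Mcemp1-/- left and wild type right. The panels show the share of *Mcpt1* and *Mcpt2* among the 8 proteases (percent), *Mcpt4* over the sum of *Mcpt1* and *Mcpt2*, *Tpsab1* over *Tpsb2*, and the share of *Cpa3* (percent). The first 3 quantities separate the genotypes and that of *Cpa3*, at 77.6% to 80.1%, does not.

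Profiles over the 6 libraries were compared across 9813 genes, leaving out the 8 members, by the root mean square distance of log2 values centred on their mean. Outside the members, the sum of the connective-tissue proteases was nearest to *Lat2* (0.03), an adaptor of KIT and FcεRI signaling, *P4ha2* (0.03) and *Kit* (0.04), and 117 genes lay within 0.1. Most of that sum is *Cpa3*, so its profile stands mainly for *Cpa3* and not for each connective-tissue member. The mucosal sum had 0 of the 9813 genes within 0.1. Its nearest was *Egr1* (0.49), an immediate early transcription factor, at 837, 657 and 360 in Mcemp1-/- replicates 4, 5 and 6, against 62.1, 79.2 and 94.7 in wild type, followed by *Aif1l* (0.51) and *Jun* (0.64). The distance was not scaled for the size of a change, and *Mcpt1* and *Mcpt2* ranked 2 and 3 of 13517 genes by log2 difference. Few genes could therefore lie near the mucosal sum, and the counts within 0.1 do not tell how many genes share its shape.

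Other genes of the protease loci and of granule storage were read from the same fit, where 25.4% of all genes were at an unadjusted p under 0.05 and, without replicate 6, 19.4% were called higher and 22.4% lower. In the chymase locus 3 of 10 listed genes were tested and 0 passed, with 1 at an unadjusted p under 0.05 (limma). *Gzmb* (granzyme B) was at 2431, 2242 and 1271 in Mcemp1-/- PC, against 903, 869 and 766 in wild type PC, without overlap, whereas *Ctsg* (cathepsin G) and *Cma2* overlapped. In the list of the tryptase locus and related serine proteases, 4 of 8 genes were tested, 0 passed and 1, *Prss34*, was at an unadjusted p under 0.05, while *Prss57*, *Tpsg1* and *Prss41* overlapped. Without replicate 6, 2 of the 3 in the chymase locus were higher and 2 of these 4 lower. Of 14 tested genes for processing and storage, 0 passed and 4 did at an unadjusted p under 0.05, with a median log2 difference of 0.11, and without replicate 6 the count was 7 higher and 3 lower. The groups did not overlap for *Hs6st1* and *Chst15*, which were higher, and for *Ctsb* and *Ctsl*, which were lower (named after their values were seen). These 2 and 2 of 14 are near the shares over all genes, 14.8% higher and 14.7% lower without overlap. The most abundant genes of the list overlapped. *Srgn*, the serglycin core protein, was at 2285, 2333 and 1730 in Mcemp1-/- PC, against 1725, 1590 and 1836 in wild type PC. The protease *Ctsd* (cathepsin D) was at 1742, 1400 and 1003 in Mcemp1-/- PC, against 918, 1072 and 1120 in wild type PC. *Ctsc*, the dipeptidyl peptidase that activates granule proteases, was at 412, 441 and 366, against 416, 391 and 357. *Ndst2*, which sulfates mast cell heparin, was at 699, 708 and 338, against 400, 371 and 419. Of 9 tested protease inhibitors, 0 passed and 3 did at an unadjusted p under 0.05, with 4 higher and 1 lower without replicate 6. The most abundant 4, *Serpinb1a*, *Cst3*, *Cst7* and *Serpina3g*, all overlapped, and *Serpinb1a* was at 1471, 1329 and 1108 in Mcemp1-/- PC, against 972, 1018 and 1212 in wild type PC.

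Among 18 tested regulators of protease genes, 0 passed and 8 did at an unadjusted p under 0.05 (limma, 25.4% of all genes), with a median log2 difference of 0.36. TGF-β is known to induce *Mcpt1* and *Mcpt2* in cultured mouse mast cells. The receptor gene *Tgfbr1* was at 750, 765 and 485 in Mcemp1-/- replicates 4, 5 and 6, against 310, 332 and 318 in wild type replicates 1, 2 and 3 (log2 difference 1.03, adjusted p = 0.137), and *Tgfbr2* at 412, 361 and 241, against 190, 217 and 236. *Gata2*, a transcription factor of mast cell genes, was at 1782, 1872 and 1151, against 1024, 1066 and 1025. All of these were higher in every Mcemp1-/- library, as were *Runx1*, at 506, 480 and 348, against 290, 323 and 337, and *Mitf*. That makes 5 of the 18 higher without overlap, where 14.8% of all genes were. Another 3 regulators, named after their values were seen, were lower in every Mcemp1-/- library, near the 14.7% of all genes that were. *Smad3*, which carries the TGF-β signal, was at 0.603, 0.807 and 4.23 in Mcemp1-/- PC, against 8.20, 8.75 and 7.06 in wild type PC. *Lmo2* and *Cebpa* were the others (log2 differences -0.70 and -4.99). The more abundant *Smad2* and *Smad4* of the list overlapped, with means of 85.7 and 49.5 in Mcemp1-/- PC, against 75.6 and 43.8 in wild type PC. Both were higher without replicate 6 (adjusted p = 0.026 and 0.032, limma). Without replicate 6, 13 of the 18 regulators were higher and 3 lower, to be read against the 19.4% and 22.4% of all genes.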

How the data were processed

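RNA of PC cultured for 9 days was measured in 3 Mcemp1-/- and 3 wild type libraries, grouped by the labels. The authors prepared KAPA mRNA libraries for an Illumina NextSeq, and their processing notes name Partek Flow and mm10. They deposited 1 normalized count per gene and library, on a scale close to CPM. Aligner, annotation, normalization method and filter: not given in the sources used here. Whole reads could not be recovered, so the depth is unknown and no count model was run. Gene starts matched GENCODE vM21 for 97.4% of genes.

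The 13517 genes that averaged 1 CPM or more were tested on log2(value + 0.479), a pseudocount equal to 0.5 CPM that understates changes of low genes, with limma 3.58.1 (R 4.3.3, lmFit and eBayes with a trend) and Benjamini-Hochberg adjustment over all genes tested. The test was checked on simulated data with independent noise in each library. No simulated library stood apart from its group as replicate 6 does, so the check does not cover that case. Ratios, sums and profiles were computed from the values in Python 3.11.15. Promoters came from RefSeq (GRCm38.p6), and sequence pairs were aligned with Biopython 1.88. Alternatives were the pseudocount, the filter, TMM factors, no variance trend, an exact permutation test, each library left out, the libraries with low *Xist* alone and, added later, *Xist* level as a block. The members and lists were chosen with earlier results of these data known. Named genes are every member, the called genes of each list of related genes or otherwise up to 4 with the highest mean, the 3 nearest profiles to the connective-tissue and the mucosal sum, *Kit* and *Mcemp1*. Cell type markers are given by sums, with examples, and other genes were named after their values were seen.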

Additional observations from a re-analysis of the deposited data

How the results depend on the processing

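The log2 differences of the 8 members kept their sign under every alternative run. With the library labelled Mcemp1-/- replicate 6 kept, they ranged over 2.95 to 3.52 for *Mcpt1*, 2.66 to 3.15 for *Mcpt2*, 1.67 to 2.30 for *Tpsab1*, 1.14 to 1.69 for *Mcpt4*, 0.34 to 0.77 for *Tpsb2*, 0.46 to 0.64 for *Cpa3*, 0.28 to 0.46 for *Cma1* and -1.08 to -0.88 for *Mcpt8*, with adjusted p from limma between 0.033 and 0.745. The lowest came with *Xist* level as a block, chosen after seeing the data, which called 2 members and 17 genes. Members called were 0 to 8 when 1 library was left out, with 8 only without the library labelled Mcemp1-/- replicate 6, and 8 with the libraries of low *Xist* alone. Over all genes tested 10 were called, 0 to 5645 when 1 library was left out (5645 without replicate 6, 0 without Mcemp1-/- replicate 4 or 5, 3 without wild type replicate 1 or 2 and 1 without wild type replicate 3), and 5628 with low *Xist* alone. The difference in the log2 ratio of connective-tissue to mucosal sums was -2.76 to -2.20 when 1 library was left out. With the sum of 14 mast cell markers in place of *Kit*, chosen after seeing the data, the log2 difference of *Cma1* was -0.28 in place of -0.20 and that of *Cpa3* -0.08 in place of -0.0029, and *Cpa3* was then lower in every Mcemp1-/- library (130%, 134% and 124% of the sum, against 139%, 135% and 136% in wild type). The cause of these changes was not tested. No paired analysis was possible because the replicate numbers run from 1 to 6 and none is shared between the groups. The read depth is unknown, so no counting interval is given.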
